A study of Mus musculus with 20 samples.

Results

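The genes Nf1, Rb1, Tsc1, Tsc2, Ptch1, Sufu, Fbxw7 and Cul1 were followed as a group of growth brakes in mouse mesothelioma. They were taken by name: every array probe that was not a control and carried the name of one of the 8 genes was a member probe. All 8 genes had probes, 85 in all, against 9427 genes with at least 3 probes on the array. Each gene was read as the mean centred log2 ratio of tumour over kidney DNA across its probes, called the gene mean here, and was set against the mean of all probes within 1 Mb on both sides of it, called the flank. A gene in which 1 of 2 copies was lost in every cell would read -1.

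Nf1 encodes neurofibromin, which switches RAS off, and Rb1 encodes the retinoblastoma protein, which holds E2F factors in check until a cell commits to division. Tsc1 and Tsc2 encode the partners of a complex that inactivates the small GTPase Rheb and so restrains the growth kinase complex mTORC1. Ptch1 is the receptor that keeps Smoothened silent until a Hedgehog ligand binds, and Sufu holds the GLI factors back in the cytoplasm. Cul1 is the scaffold of the SCF ubiquitin ligases. Fbxw7 is the substrate receptor by which such a ligase marks cyclin E, MYC and other growth-promoting proteins of the nucleus for breakdown. Mesothelioma, the tumour of the cell layer that lines body cavities, is known for the loss of suppressor genes rather than for activating mutations.

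DNA copy number was measured on dual-colour arrays in 20 peritoneal mesotheliomas of mice that had received crocidolite, an iron-rich asbestos, by injection into the peritoneum, 1.5 mg on 2 occasions at the age of 6 and 7 weeks, 3 mg in total, with observation over 600 to 700 days. Wild-type tumours came in a set labelled with Dmt1 (WT_Dmt1, n = 4) and a plain set (WT_plain, n = 3). Dmt1Tg (n = 4) carried a transgene of the iron transporter Dmt1, whose promoter is not given in the sources used here, and MutyhKO, Ogg1KO and Mth1KO (n = 3 each) lacked a gene that acts against oxidised guanine: Mutyh and Ogg1 are DNA glycosylases, and Mth1 clears oxidised nucleotides. All groups had received crocidolite, so no group shows the genes without it. Tumour DNA carried Cy5 and non-neoplastic C57BL/6 kidney DNA of the same genotype carried Cy3 on every array, so that a dye effect on a probe and a difference between tumour and kidney cannot be told apart. Whether the arrays of a genotype shared 1 kidney DNA is not given in the sources used here; if they did, a difference between genotypes and one between their kidney references cannot be told apart.

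There was 1 array per tumour, on 5 slides read on 2 scan days. WT_Dmt1 and Dmt1Tg were scanned on day 1, and WT_plain and the knockouts on day 2. All WT_Dmt1 tumours were on slide 1 and all Dmt1Tg tumours on slide 2. WT_plain shared slide 3 with MutyhKO 1 alone, and the other knockout tumours were on slides 4 and 5. The noise of single probes, from differences between neighbouring probes, ran from 0.22 in MutyhKO 1 to 0.54 in WT_Dmt1 1, and kidney signal was well above background at 73.4% to 97.7% of probes per array. On WT_plain 1 and WT_plain 2, patches of spots with a shifted local median held 8.14% and 5.14% of spots, and they held 8 and 3 of the 85 member probes. Separate animals are not stated for the tumours of a group, and the p-values then speak only of the spread among these arrays.

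Sufu lay lowest of the 8 genes, followed by Ptch1, Rb1 and Tsc1. Over all 20 tumours the gene mean was below 0 for Sufu, Ptch1, Rb1, Tsc1 and Nf1 by limma's test (adjusted p at most 0.0146, Benjamini-Hochberg over 9427 genes) and was not called for Tsc2, Fbxw7 and Cul1. That is 5 of 8 members called lower. Of all genes tested, 41.2% were called lower and 27.8% higher by the same test, so a call of this kind is common on these arrays and nothing particular to the members is read from their count. Against their flanks, 4 members (Sufu, Rb1, Tsc1 and Ptch1) were called lower and 1 (Tsc2) higher, where 33.2% of all genes were called lower and 30.4% higher. Neighbours in the order of gene means lay close together next to their spread between tumours: Ptch1 stood at -0.29 ± 0.15 and Rb1 at -0.25 ± 0.14, and Fbxw7 stood at 0.00 ± 0.15 beside Tsc2 at 0.03 ± 0.29 (SD, n = 20).

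**Figure D1:**
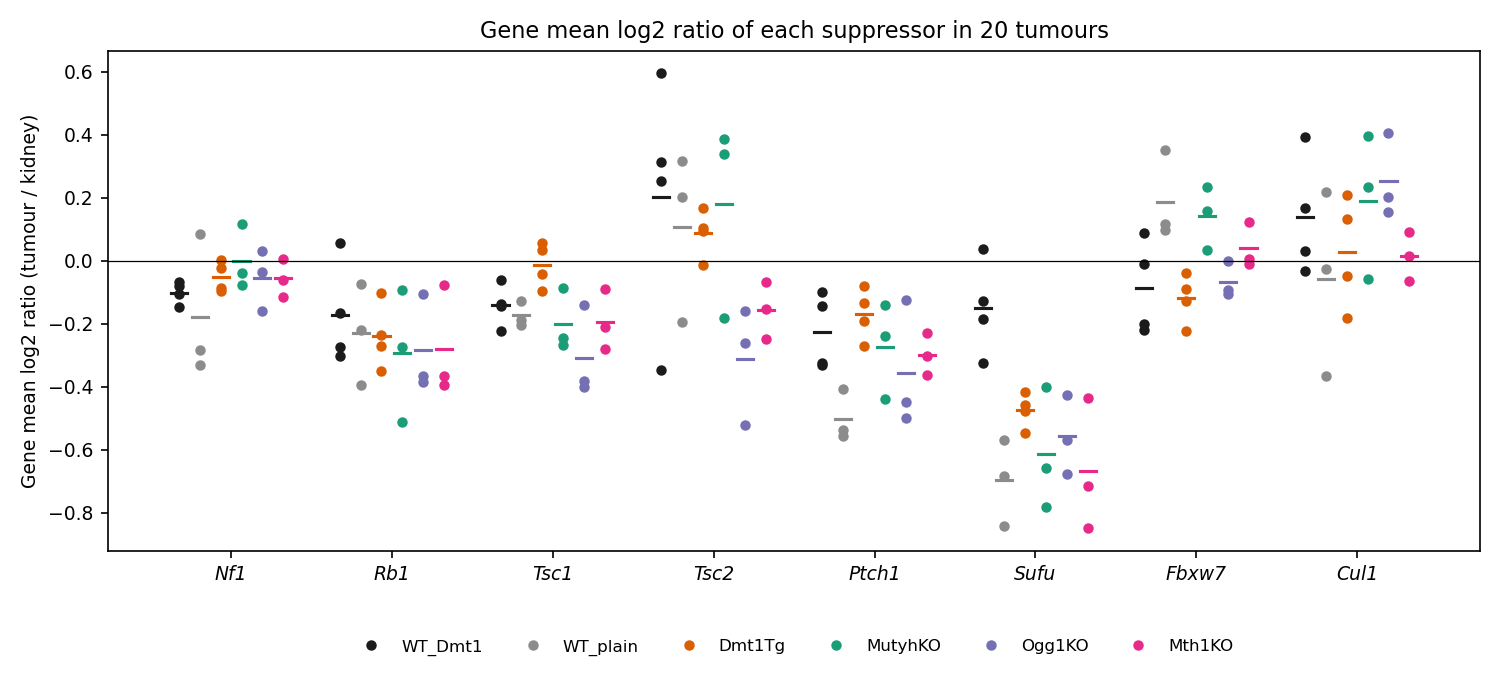
Gene mean log2 ratio of tumour over kidney DNA (vertical axis) for each of the 8 genes; each point is 1 tumour, coloured by group, and the short lines are group means. All Sufu points except WT_Dmt1 1 (0.04) lie below 0, and Tsc2 spreads from -0.52 to 0.59.

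Sufu, on chromosome 19 at 46477531 to 46557108 (mm9, as for all positions here), had 9 probes across 79.6 kb. In WT_Dmt1 its gene mean was 0.04, -0.13, -0.18 and -0.33 in replicates 1 to 4. In WT_plain it was -0.57, -0.68 and -0.84, and in Dmt1Tg it was -0.46, -0.42, -0.48 and -0.55. In the knockouts it was -0.40, -0.78 and -0.66 in MutyhKO, -0.68, -0.57 and -0.43 in Ogg1KO, and -0.44, -0.72 and -0.85 in Mth1KO. The WT_Dmt1 tumours were the 4 highest of the 20. The 3 WT_plain tumours all lay below the 4 Dmt1Tg tumours, and each knockout group overlapped both of these. The mean over all tumours was -0.51 ± 0.24 (SD, n = 20; limma adjusted p = 1.51e-08), and 3.27% of all genes tested had a lower mean. The flank of Sufu, 210 probes, stood at -0.21 ± 0.14, and Sufu was below its flank in 20 of 20 tumours, by 0.00 to 0.54, with a mean of -0.30 ± 0.14 (limma adjusted p = 5.08e-08). The direction and the call held under every alternative setting run, from -0.16 with a flank of 0.5 Mb to -0.40 with only the probes whose kidney signal was well above background on every array.

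The low value was spread over the gene: 8 of the 9 Sufu probes had a mean below 0 over the tumours, although the 4th was well above background in kidney on 0 of 20 arrays. The steadiest of them, the 7th in order along the chromosome (46542040 to 46542099), read -0.61 ± 0.19 and was below 0 in 20 of 20 tumours. Its neighbour, the 8th probe (46551310 to 46551369), was the only one above 0 on average, at 0.40 ± 0.48, and its kidney signal was well above background on 4 of 20 arrays against 20 of 20 for the 7th. The pair are shown because they carry the opposite readings within 1 gene. Probe sequences here are those of the array files, 5′ to 3′, with the longest unbroken run of G and C letters in capitals; whether a probe lies in an exon or an intron is not analysed here.
Sufu probe 7: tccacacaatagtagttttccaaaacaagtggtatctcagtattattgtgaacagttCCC
Sufu probe 8: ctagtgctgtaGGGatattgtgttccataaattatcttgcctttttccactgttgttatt

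Both sides of Sufu were low as well. The 100 kb before the gene's probes averaged -0.56 ± 0.21 and the 100 kb after them -0.61 ± 0.17 (SD between 20 tumours), beside -0.51 at the gene itself. Farther out the bins were uneven, at -0.11 in the one centred 150 kb before the gene and -0.46 in that at 350 kb. From the bin centred 750 kb after the gene on, they averaged between 0.05 and 0.08. In WT_plain 2 and WT_plain 3 the segmentation placed Sufu in a short stretch of 334.1 kb and 306.2 kb with means of -0.99 and -0.93, the deepest of any member in any tumour. In Ogg1KO 1 the stretch was 784.0 kb at -0.55, and in Dmt1Tg 1 it was 718.8 kb at -0.37.

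**Figure D2:**
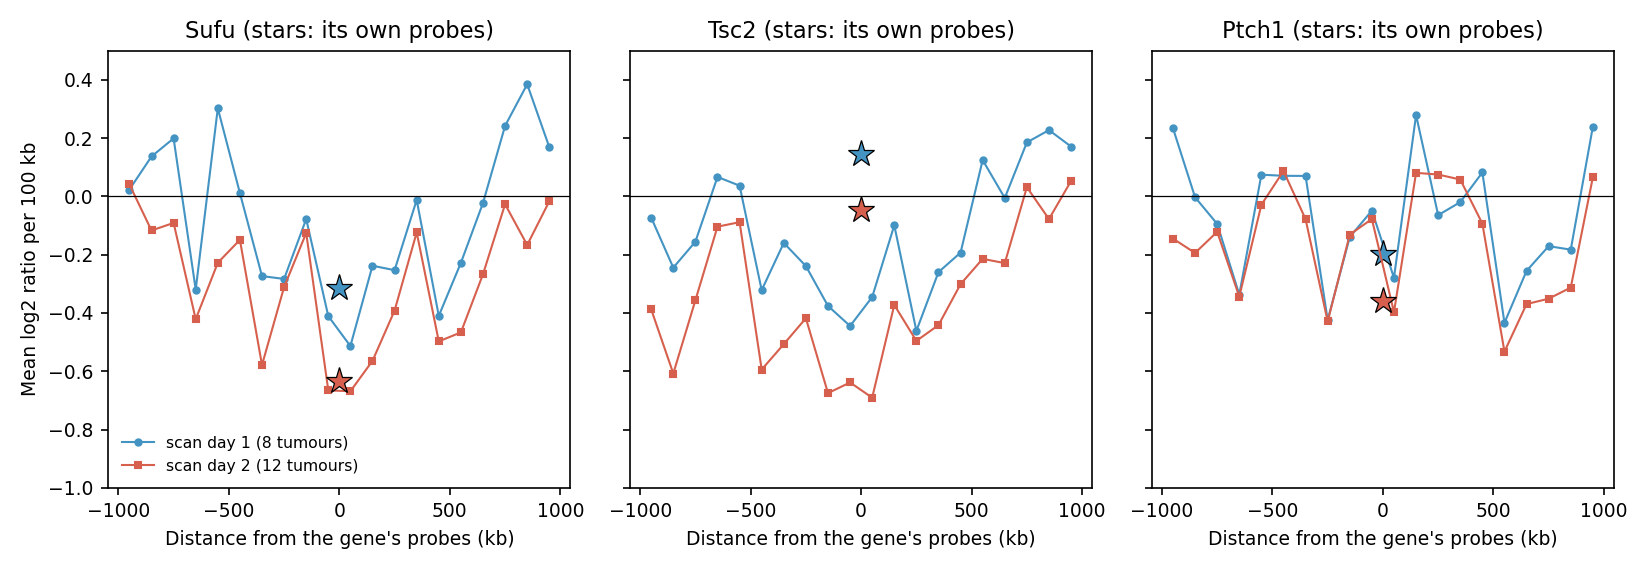
Mean log2 ratio per 100 kb bin (vertical axis) by distance in kb from the outermost probes of Sufu, Tsc2 and Ptch1, averaged over the 8 tumours of scan day 1 and the 12 of scan day 2; stars are the gene's own probes, drawn at 0. On day 2 Sufu (-0.63) lies close to its nearest bins (-0.67 on both sides), on day 1 (-0.31) it lies above them (-0.41 and -0.51), and Tsc2 (0.15 on day 1 and -0.05 on day 2) lies above bins that read -0.44 and -0.64 just before it.

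Ptch1, on chromosome 13 at 63617565 to 63661784, had 6 probes and a gene mean of -0.29 ± 0.15 over 20 tumours (limma adjusted p = 1.25e-07). It was below 0 in 20 of 20 tumours. The values were -0.32, -0.33, -0.14 and -0.10 in WT_Dmt1, -0.56, -0.54 and -0.41 in WT_plain, and -0.27, -0.08, -0.19 and -0.14 in Dmt1Tg. They were -0.24, -0.14 and -0.44 in MutyhKO, -0.45, -0.50 and -0.13 in Ogg1KO, and -0.23, -0.30 and -0.36 in Mth1KO. WT_plain lay wholly below WT_Dmt1, Dmt1Tg and Mth1KO, and overlapped MutyhKO and Ogg1KO. Its flank was also low, at -0.16 ± 0.08, and Ptch1 was below it in 16 of 20 tumours, by a mean of -0.13 ± 0.13 (limma adjusted p = 4e-04). With normexp background correction in place of the scanner's, the gene mean was -0.08 (limma adjusted p = 0.00885) and the difference from the flank turned to 0.0605 (adjusted p = 0.0433). With a flank of 2 Mb that difference was -0.23.

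The reading of Ptch1 depended on where along the gene it was taken. In chromosome order its 6 probes averaged -0.04, -0.03, -0.17, -0.34, -0.47 and -0.71, so the lowest values sat at one end. The 2nd probe (63625358 to 63625417) was below 0 in 9 of 20 tumours, whereas the 5th (63655347 to 63655406) was below 0 in 19 of 20. Kidney signal of both was well above background on 20 of 20 arrays, and both were 38.3% G and C; they are shown as a high and a low reading along that slope.
Ptch1 probe 2: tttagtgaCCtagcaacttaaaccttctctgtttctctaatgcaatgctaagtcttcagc
Ptch1 probe 5: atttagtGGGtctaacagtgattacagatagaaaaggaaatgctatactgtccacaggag

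Tsc2, on chromosome 17 at 24739593 to 24759591, had only 4 probes, and its own value and that of its surroundings parted. The gene mean was 0.59, 0.31, -0.35 and 0.25 in WT_Dmt1, 0.32, 0.20 and -0.19 in WT_plain, and 0.10, 0.09, -0.01 and 0.17 in Dmt1Tg. It was -0.18, 0.34 and 0.39 in MutyhKO, -0.52, -0.16 and -0.26 in Ogg1KO, and -0.15, -0.07 and -0.25 in Mth1KO. All Ogg1KO and Mth1KO tumours were below 0, but 1 WT_Dmt1, 1 WT_plain, 1 Dmt1Tg and 1 MutyhKO tumour were too. The mean over all tumours was 0.03 ± 0.29 (limma adjusted p = 0.664). Its flank of 201 probes averaged -0.26 ± 0.15, and Tsc2 was above it in 17 of 20 tumours, by 0.29 ± 0.30 (limma adjusted p = 2.34e-04). The 100 kb on either side read -0.56 ± 0.21 before and -0.55 ± 0.23 after the gene.

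The spread of Tsc2 came from the 3rd and 4th of its probes, with SDs between tumours of 0.72 and 0.79 against 0.18 and 0.28 for the 1st and 2nd. The 4th was well above background in kidney on 2 of 20 arrays and reached -2.79 in WT_Dmt1 3, the tumour with the lowest Tsc2 of its set. With probes well above background on every array, 3 of the 4 remained, and the difference from the flank was 0.39; it was 0.45 with a flank of 0.5 Mb. The 2nd probe (24745561 to 24745620) and the 3rd (24751183 to 24751242) are shown as the steadier and the more variable reading of the gene; both were well above background in kidney on all 20 arrays.
Tsc2 probe 2: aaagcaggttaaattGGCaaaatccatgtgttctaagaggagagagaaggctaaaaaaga
Tsc2 probe 3: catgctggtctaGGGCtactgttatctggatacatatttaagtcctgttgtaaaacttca

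Tsc1, the partner of Tsc2, on chromosome 2 at 28498119 to 28546640, had 7 probes and a gene mean of -0.16 ± 0.12 (limma adjusted p = 2.67e-05). It ran from -0.40 in Ogg1KO 1 to 0.06 in Dmt1Tg 4, with a median of -0.14, and was below 0 in 18 of 20 tumours. The Dmt1Tg tumours, at 0.03, -0.04, -0.10 and 0.06, held the 3 highest values. Against a flank of -0.01 ± 0.11 it was lower by -0.15 ± 0.12, in 18 of 20 tumours (limma adjusted p = 6.99e-05). The 7 probes disagreed widely, from a mean of -0.88 at the 1st to 0.58 at the 7th. With probes well above background on every array, 5 of the 7 remained, the gene mean turned to 0.0261 and the difference from the flank to 0.0372. With a flank of 2 Mb that difference was 0.0038, and with normexp it was -0.05 and no longer called (adjusted p = 0.0965).

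**Figure D3:**
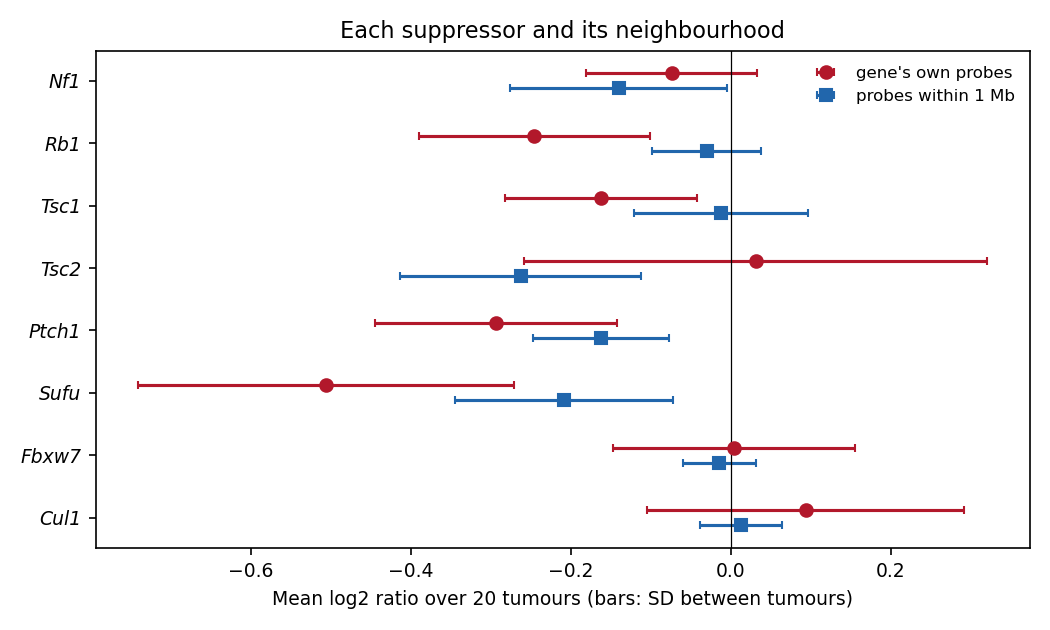
Mean log2 ratio over 20 tumours (horizontal axis) of each gene's own probes (circles) and of all probes within 1 Mb on both sides (squares); bars are the SD between tumours. Sufu and Rb1 lie below their flanks (-0.51 against -0.21 and -0.25 against -0.03), and Tsc2 lies above its flank (0.03 against -0.26).

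Nf1, on chromosome 11 at 79160565 to 79388279, was the best covered member, with 24 probes over 227.7 kb. Its gene mean was -0.07 ± 0.11 over 20 tumours (limma adjusted p = 0.0146) and was below 0 in 15 of them. It was -0.08, -0.11, -0.07 and -0.15 in WT_Dmt1, -0.29, -0.33 and 0.08 in WT_plain, and -0.02, -0.10, 0.00 and -0.09 in Dmt1Tg, and it ran from -0.16 to 0.12 in the knockouts. WT_plain 1 and WT_plain 2 were the lowest of the 20 tumours. The call was lost with slide as a random block (adjusted p = 0.0763), and with probes well above background on every array, 15 of the 24, the mean turned to 0.043 (adjusted p = 0.0269). Its flank was lower still, at -0.14 ± 0.14, and the difference of 0.07 ± 0.15 was not called (limma adjusted p = 0.0796), though it was with probes well above background (0.20, adjusted p = 2.44e-06) and with patches left out (0.08, adjusted p = 0.0412), and when WT_Dmt1 1, 2 or 3 was left out.

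The low Nf1 values of WT_plain 1 and WT_plain 2 rested largely on 1 probe. The 6th probe (79211137 to 79211196) read -3.86 and -4.26 in these tumours and between -0.75 and 0.14 in the other 18. In both it lay in a patch of shifted spots on the array. Without that probe the gene mean was -0.13 and -0.16 in the 2 tumours, and with all patches left out it was -0.01 and -0.11. The probe is shown with the 15th (79303158 to 79303217), which was the highest of the gene at 0.37 ± 0.41.
Nf1 probe 6: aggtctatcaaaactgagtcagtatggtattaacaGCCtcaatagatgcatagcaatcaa
Nf1 probe 15: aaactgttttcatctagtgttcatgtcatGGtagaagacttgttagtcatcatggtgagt

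Rb1, on chromosome 14 at 73595475 to 73722998, had 15 probes. The gene mean was -0.17, -0.30, -0.27 and 0.05 in WT_Dmt1, -0.39, -0.22 and -0.08 in WT_plain, and -0.35, -0.10, -0.24 and -0.27 in Dmt1Tg. It was -0.09, -0.51 and -0.27 in MutyhKO, -0.37, -0.38 and -0.11 in Ogg1KO, and -0.08, -0.39 and -0.37 in Mth1KO. Each group held both high and low tumours, and 19 of 20 were below 0. The mean was -0.25 ± 0.14 (limma adjusted p = 8.92e-07), 14 of the 15 probes averaged below 0, and the whole flank averaged -0.03 ± 0.07. The nearest 100 kb were lower than the gene itself, at -0.33 ± 0.19 on both sides, so the low values reached beyond Rb1. Rb1 was below its flank in 19 of 20 tumours, by -0.22 ± 0.13 (limma adjusted p = 1.75e-06). Its direction and call held under every alternative setting run, from -0.13 with a flank of 0.5 Mb to -0.26 with one of 2 Mb.

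Fbxw7, on chromosome 3 at 84626775 to 84770434 with 14 probes, read 0.00 ± 0.15 over all tumours (limma adjusted p = 0.92), from -0.22 in Dmt1Tg 1 to 0.35 in WT_plain 2, with 11 of 20 below 0. Its difference from the flank was 0.02 ± 0.17 and its sign changed with 3 of the settings run. Cul1, on chromosome 6 at 47406701 to 47467782 with 6 probes, read 0.09 ± 0.20 (limma adjusted p = 0.0567), from -0.37 in WT_plain 1 to 0.41 in Ogg1KO 3. With normexp background correction it turned to -0.16 (adjusted p = 6.3e-04). It was called higher with the value table of the series (0.11, adjusted p = 0.0151). Only 3 of its 6 probes were well above background in kidney on every array. It was also called higher when WT_Dmt1 1, Dmt1Tg 1, Dmt1Tg 3, WT_plain 1, MutyhKO 2 or Mth1KO 1 was left out. Against a flank of 0.01 ± 0.05 the difference of Cul1 was 0.08 ± 0.18 (limma adjusted p = 0.0752). That difference was called higher with a flank of 0.5 Mb (0.18, adjusted p = 6.47e-04) and with the value table (0.095, adjusted p = 0.0227). With normexp it turned to -0.13 and was called lower (adjusted p = 8.4e-04).

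The probe noise limits what a small gene can show. Dividing each array's noise by the root of the number of probes gives 0.04 to 0.11 for Nf1, 0.07 to 0.18 for Sufu and 0.11 to 0.27 for Tsc2. The SD between tumours was 0.11, 0.24 and 0.29 for these genes. G and C content averaged 36.7% over the 85 member probes and 36.8% over all autosomal probes.

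The genotypes were then compared, each against the 7 wild-type tumours, which all 4 comparisons share. No member was called in any of them: 0 of 8 by the gene mean in each comparison and 0 of 8 against the flank, by limma with adjusted p over 9427 genes. Of all genes, 0% were called by the gene mean in the Dmt1Tg, MutyhKO, Ogg1KO and Mth1KO comparisons, and against the flank 0.0424% in MutyhKO and 0% in the other 3. At an unadjusted p under 0.05, 3 of the 32 gene mean differences and 1 of the 32 flank differences of the members passed, beside 7.44% and 8.71% of the differences of all genes.

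Tsc2 in Ogg1KO gave the largest of these differences. Its gene mean was -0.31 ± 0.19 in Ogg1KO (SD, n = 3) and 0.16 ± 0.32 in wild type (SD, n = 7), a difference of -0.48 with a standard error of 0.16 (limma adjusted p = 0.626). Against the flank the difference was -0.46 with a standard error of 0.17 (limma adjusted p = 0.35). The Ogg1KO values fell within the range of the wild-type ones but for Ogg1KO 1, at -0.52 against a lowest wild-type value of -0.35. The 3rd Tsc2 probe read -0.92, -0.11 and -1.27 in Ogg1KO. It read 1.35, 0.88, 1.13 and 0.62 in WT_Dmt1 and 0.98, 0.23 and -0.54 in WT_plain. The 2nd probe read -0.01, -0.11 and 0.28 in Ogg1KO and from -0.32 to 1.04 in wild type. The size of the gene mean difference thus rested largely on the 3rd of the 4 probes. With only the wild-type tumours of the same scan day, the flank difference was -0.64 (limma adjusted p = 0.0828), and it was -0.55 (adjusted p = 0.39) with array patches also left out. With slide as a fixed block it was -1.15 (adjusted p = 0.395), and the gene mean difference was -0.99 (adjusted p = 0.225). No Ogg1KO tumour shared a slide with a wild-type one. The comparison within slides ran through MutyhKO, of which only replicate 1 shared a slide with WT_plain. Both values thus hang on that 1 tumour of another genotype.

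Tsc1 was higher in Dmt1Tg by 0.14 with a standard error of 0.06 (limma adjusted p = 1) and lower in Ogg1KO by -0.15 with a standard error of 0.07 (limma adjusted p = 0.65); neither passed the adjusted test. Without Ogg1KO 2 the latter was -0.24, and with probes well above background it was -0.26. With a tumour left out it came as near to zero as -0.10, and with the wild type of the same scan day it was -0.13. For Sufu the differences from wild type were -0.09 in Dmt1Tg, -0.23 in MutyhKO, -0.17 in Ogg1KO and -0.28 in Mth1KO, with standard errors from 0.14 to 0.15. With the wild-type tumours of the same scan day they were -0.32, 0.08, 0.14 and 0.03, with standard errors from 0.10 to 0.12, so the sign turned in the 3 knockouts, and none was called (limma adjusted p from 0.273 to 0.925). For Rb1 they were -0.04, -0.10, -0.09 and -0.08, with standard errors from 0.10 to 0.11, and -0.07, -0.06, -0.06 and -0.05 against the same scan day. For Dmt1Tg the comparison within the scan day set slide 2 against slide 1, so genotype and slide cannot be told apart in it. Differences of the size of those standard errors were not detectable with 3 or 4 tumours a group, and larger ones did not pass the adjusted test either. Sufu in Dmt1Tg against the same scan day, at -0.32 with a standard error of 0.10, had a limma adjusted p of 0.273. A missed threshold does not show that genotypes were alike.

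The wild-type sets, which share a genotype but not a scan day, differed at some members. Sufu averaged -0.15 ± 0.15 in WT_Dmt1 (n = 4) and -0.70 ± 0.14 in WT_plain (n = 3), with no overlap, and Ptch1 -0.23 ± 0.12 and -0.50 ± 0.08. Fbxw7 averaged -0.09 ± 0.15 and 0.19 ± 0.14, WT_plain being the higher set there, also with no overlap. So 2 members were lower in WT_plain without overlap and 1 was higher. Of all genes tested, 24.6% were lower and 6.06% higher in WT_plain in that way. Whether the set, the slide or the scan day moves these values cannot be told apart.

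The same split runs through the scan days. Sufu averaged -0.31 ± 0.20 over the 8 tumours of day 1 and -0.63 ± 0.16 over the 12 of day 2, Ptch1 -0.20 ± 0.10 and -0.36 ± 0.15, Tsc1 -0.08 ± 0.09 and -0.22 ± 0.10, and Rb1 -0.21 ± 0.13 and -0.27 ± 0.15. Each of these 4 was below 0 on average on both days. Nf1 was level, at -0.08 ± 0.05 and -0.07 ± 0.14, but its difference from the flank was -0.06 ± 0.09 on day 1 and 0.15 ± 0.11 on day 2. Tsc2 and Fbxw7 changed sign between the days: Tsc2 averaged 0.15 ± 0.27 and -0.05 ± 0.29, and Fbxw7 -0.10 ± 0.11 and 0.08 ± 0.13. Cul1 averaged 0.08 ± 0.18 and 0.10 ± 0.22.

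Each array was also cut into stretches of equal copy number, and a gene was called lost where its segmented value was at or below -0.2 and gained at or above 0.2. Of 160 pairs of member and tumour, 39 were called lost and 1 gained. Over all autosomal genes, 14.8% of pairs were called lost and 2% gained. Sufu and Tsc2 gave 30 of the 39, with 15 tumours each, Nf1 gave 7, Rb1 1 and Ptch1 1, and Tsc1, Fbxw7 and Cul1 gave 0. Genes lost in at least as many tumours as Sufu or Tsc2 made up 4.93% of all autosomal genes. The gain was Cul1 in WT_plain 3, at 0.21.

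**Figure D4:**
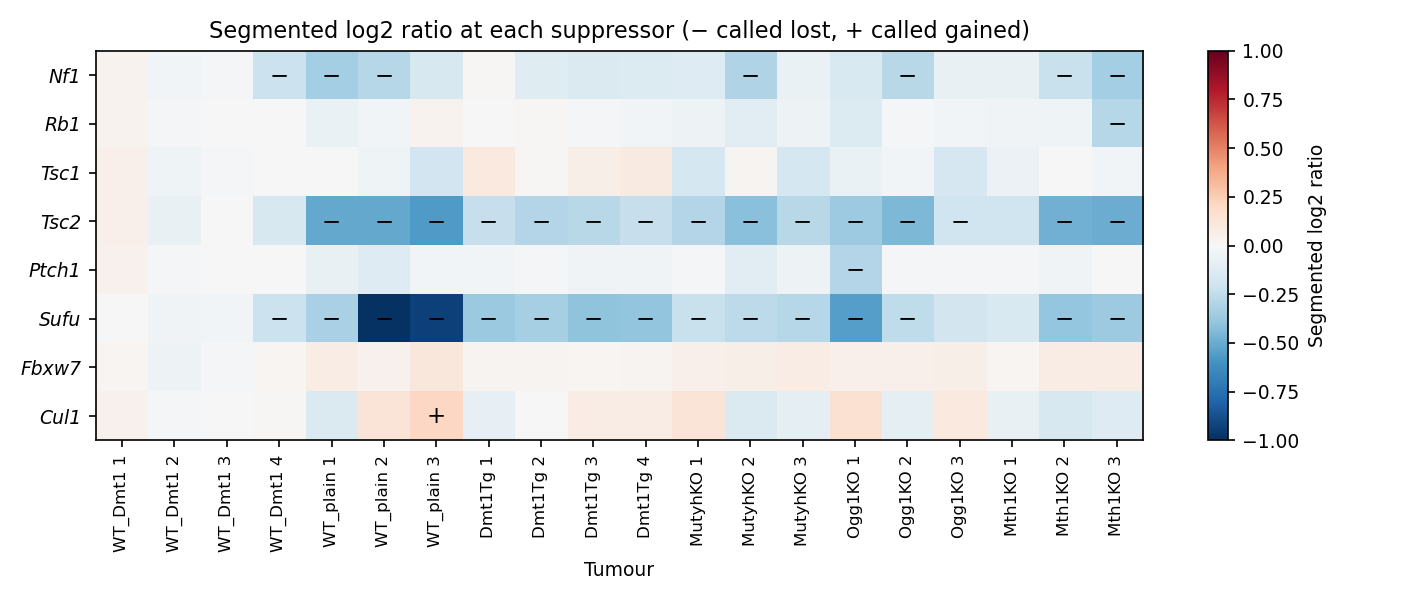
Segmented log2 ratio (colour, from -1 to 1) at each gene (rows) in each tumour (columns); a minus sign marks a call of loss at or below -0.2 and a plus sign a gain at or above 0.2. Sufu and Tsc2 are marked lost in 15 tumours each, Sufu most deeply in WT_plain 2 (-0.99) and WT_plain 3 (-0.93), and WT_Dmt1 1 to 3 carry no mark.

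WT_Dmt1 1, 2 and 3 and Mth1KO 1 had 0 members called lost, and Mth1KO 3 had the most, 4. The 3 WT_Dmt1 arrays were also those with the fewest lost genes of all autosomal ones, 0% to 0.85% against 6.08% to 34.2% in the other 17. Their noise was 0.54, 0.41 and 0.38, beside 0.22 to 0.45 in the other arrays; its part in the calls was not tested. Where Sufu was called lost, its own probes also averaged -0.2 or less, in 15 of 15 tumours. Those probes are part of the stretch, so some of this is built in. They also averaged -0.2 or less in Ogg1KO 3 (-0.43) and Mth1KO 1 (-0.44), where Sufu was not called lost. Of the 15 tumours with Tsc2 called lost, its own probes averaged -0.2 or less in 3 (Ogg1KO 1 and 3 and Mth1KO 3) and above 0 in 7. In WT_plain 2, for example, the stretch of 1757.1 kb around Tsc2 stood at -0.52 and its own probes at 0.20, whereas in Ogg1KO 1 the own probes, at -0.52, lay below the stretch at -0.36. The stretch that held Tsc2 began at the same probe, at 23688347, in 13 of the 20 tumours. The 7 calls at Nf1 came with stretches of 1878.8 kb to 6041.3 kb, in WT_Dmt1 4, WT_plain 1 and 2, MutyhKO 2, Ogg1KO 2 and Mth1KO 2 and 3. Of these 7 tumours, the own probes of Nf1 averaged -0.2 or less in 2, WT_plain 1 and 2. With array patches left out, the gene mean of those 2 was -0.01 and -0.11. The own probes averaged above 0 in 2 others, MutyhKO 2 (0.12) and Mth1KO 2 (0.01). Rb1 was called lost in Mth1KO 3 alone, in a stretch of 1017.0 kb at -0.29, and Ptch1 in Ogg1KO 1 alone, in one of 1194.6 kb at -0.29. With a penalty of 20 in place of 40, which allows shorter stretches, Rb1 was called lost in 10 tumours and Ptch1 in 6, beside 18.8% of all pairs of gene and tumour.

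Much of the low-level pattern was shared between arrays, to unlike degrees and least in WT_Dmt1 1, 2 and 3. The profile shared by the other arrays, a running median over 51 probes of their median, was fitted to each array, and the slope says how strongly the array shows it. The slope ran from 0.29 to 0.88 on day 1 and from 0.87 to 1.78 on day 2. The probes of the members and their neighbours were part of the profile and of the fit. By construction, a gene low in the profile tends to fall as the slope rises, and a gene high in it to rise. The relations with the slope given here are thus a description, and no conclusion about a gene is drawn from their p-values. The gene mean of Sufu went with the slope over 20 arrays (Pearson r = -0.89, Spearman rho = -0.87, permutation p = 1e-05 for both, the smallest that 100000 resamples give, two-sided as for all relations here; adjusted p = 1.6e-04 over 16 relations). It did so within day 1 (r = -0.88, n = 8, exact permutation p = 0.0065) and within day 2 (r = -0.79, n = 12, permutation p = 0.003), and without the 2 arrays farthest from the median slope (r = -0.88). With the shared profile regressed out, 0 of 160 pairs were called, beside 0.154% of all pairs called lost and 0.315% gained, and the segmented values of Sufu ran from -0.05 to 0.04. The profile was built from the other tumours, so a loss that recurs in most of them is taken away with it. No conclusion is drawn from these counts for that reason.

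**Figure D5:**
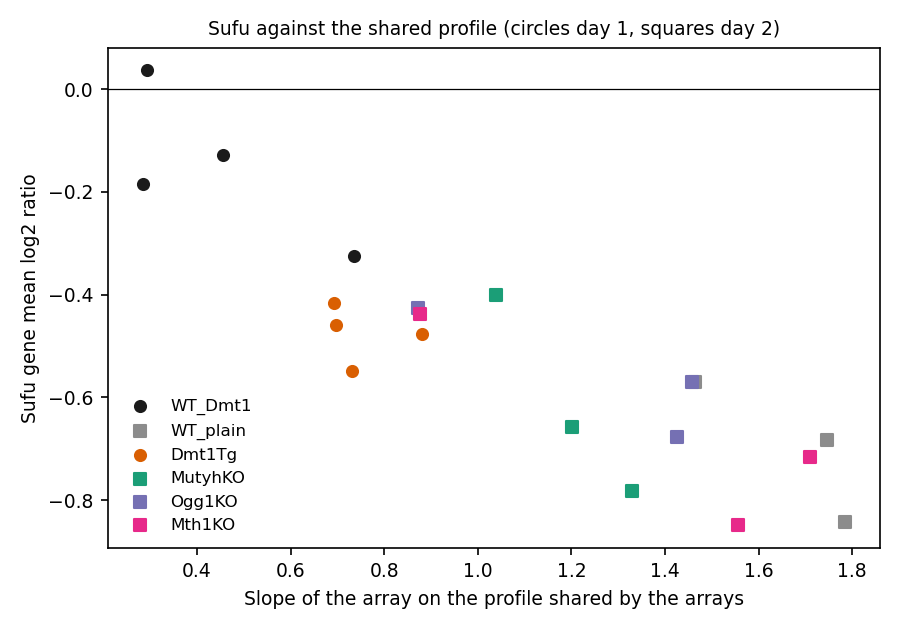
Gene mean log2 ratio of Sufu (vertical axis) against the slope of each array on the profile shared by the other arrays (horizontal axis); each point is 1 tumour, circles for scan day 1 and squares for day 2, coloured by group. Sufu falls from 0.04 in WT_Dmt1 1, at a slope of 0.29, to -0.84 in WT_plain 3, at a slope of 1.78.

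Ptch1 (r = -0.62, rho = -0.61, permutation p = 0.0041 and 0.0054, adjusted p = 0.017) and Fbxw7 (r = 0.61, rho = 0.59, permutation p = 0.0041 and 0.0073, adjusted p = 0.017) also went with the slope over 20 arrays. Ptch1 did so on day 2 (r = -0.61, permutation p = 0.037) and had the opposite sign on day 1 (r = 0.44, exact permutation p = 0.27). Fbxw7 did not pass on day 1 (r = 0.20, exact permutation p = 0.63) or day 2 (r = 0.29, permutation p = 0.37). Without the 2 arrays farthest from the median slope, r was -0.53 for Ptch1 and 0.49 for Fbxw7. The other 5 members gave adjusted p from 0.15 to 0.74. With the share of kidney spots well above background, Sufu (r = 0.62, rho = 0.70, permutation p = 0.003 and 8.2e-04, adjusted p = 0.017), Ptch1 (r = 0.58, rho = 0.52, permutation p = 0.0082 and 0.021, adjusted p = 0.024) and Fbxw7 (r = -0.57, rho = -0.46, permutation p = 0.0088 and 0.042, adjusted p = 0.024) moved over 20 arrays. For Sufu this held on day 2 (r = 0.78, permutation p = 0.0037) and not on day 1 (r = -0.34, exact permutation p = 0.43). Ptch1 gave r = -0.08 (exact permutation p = 0.87) and 0.53 (permutation p = 0.077) on the 2 days, and Fbxw7 -0.77 (exact permutation p = 0.019) and -0.32 (permutation p = 0.31). Without the 2 farthest arrays, r was 0.53 for Sufu, 0.62 for Ptch1 and -0.59 for Fbxw7. Rb1 missed the adjusted threshold over 20 arrays (r = 0.50, rho = 0.59, permutation p = 0.025 and 0.0076, adjusted p = 0.057) and had opposite signs on day 1 (r = -0.84, exact permutation p = 0.018) and day 2 (r = 0.78, permutation p = 0.0029). The part of the kidney signal in these levels was not tested.

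Partners of the members were read in 5 lists of pathway genes. No list gene was called in any genotype comparison by either measure, in 144, 72, 128, 72 and 48 tests for the RAS, RB, TSC, Hedgehog and SCF lists, where 11, 2, 19, 6 and 5 passed an unadjusted p under 0.05, beside 8.08% of the tests of all genes. Over all tumours, the gene mean was called lower for 12 of 18 RAS pathway genes tested, 6 of 9 RB and E2F genes, 12 of 16 TSC and mTORC1 genes, 2 of 9 Hedgehog genes and 4 of 6 SCF genes, beside 41.2% of all genes. It was called higher for 2, 1, 1, 6 and 0 of them, beside 27.8% of all genes. The median gene mean of the lists was -0.12, -0.11, -0.26, 0.12 and -0.15, and that of all genes -0.04. Of their pairs of gene and tumour, 17.8%, 16.7%, 26.6%, 6.67% and 11.7% were called lost, beside 14.8% of all.

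Within these lists, Map2k2, the MEK kinase downstream of RAS and RAF, was called lost in 18 tumours, with a gene mean of -0.65 ± 0.31 and a flank of -0.56. Ptpn11, the phosphatase SHP2 that helps to activate RAS, was called lost in 9 and gained in 1, at a gene mean of -0.13 ± 0.34. Ccnd3, a D-type cyclin that drives phosphorylation of the retinoblastoma protein, was called lost in 8, and Rbl1, which encodes its relative p107, in 6. Akt2, a kinase that inhibits the TSC complex, was called lost in 12, at a gene mean of -0.16 ± 0.29. Fbxw8, another F-box protein, was called lost in 3 and gained in 1, at a gene mean of -0.08 ± 0.18. Of all pairs of gene and tumour, 14.8% were called lost.

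Pathway genes close to the 2 most often lost members gave unlike readings of their own probes. Pdpk1, the kinase PDK1 that activates AKT, lies 469 kb from Tsc2 and was called lost in 15 tumours. It lay wholly or partly within the stretch that held Tsc2 in each tumour, so its calls are not separate from those of Tsc2. The own 6 probes of Pdpk1 averaged -0.34 ± 0.46 over all 20 tumours, from -1.59 to 0.05. Btrc, the F-box protein that lets an SCF ligase take up beta-catenin and GLI factors, lies 876 kb from Sufu and was called lost in 11 tumours, but its own 19 probes averaged -0.03 ± 0.07, above a flank of -0.25. In some of these tumours, such as MutyhKO 1, the stretch that held Sufu (43558584 to 48033623) also held Btrc. Spop, an adaptor by which GLI factors are broken down, resembled Btrc: it was called lost in 12 tumours with a gene mean of -0.08 ± 0.13 and a flank of -0.21.

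Genes on other chromosomes that varied most like each member over the 20 tumours were picked by Pearson r of gene means among those with at least 5 probes, as a description, since all genes share the arrays. For Sufu it was Dock6 on chromosome 9 (r = 0.92 among 5725 genes), and 97 genes exceeded an r of 0.8. For Nf1 it was Adk on chromosome 14 (r = 0.86), for Fbxw7 AK133334 on chromosome 12 (r = 0.84) and for Ptch1 Lrrc28 on chromosome 7 (r = 0.83). For Tsc1 it was Sec14l1 on chromosome 11 (r = 0.78), for Tsc2 Atg7 on chromosome 6 (r = 0.75), for Cul1 Tmtc4 on chromosome 14 (r = 0.74) and for Rb1 Ndufs4 on chromosome 13 (r = 0.72). For these last 4 members no gene exceeded an r of 0.8.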

How the data were processed

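Each tumour had 1 Agilent 180K array, read with Agilent Feature Extraction (10.7 per the submitters' processing notes, 10.7.1.1 per the file headers). The red and green intensity values, per the file headers, are processed signals after background subtraction and dye normalisation, and the LogRatio column deposited with them is the log10 of red (tumour) over green (kidney). The deposited value table of the series holds log2 ratios that differed from it by at most 6.29e-07. Control spots and outlier flags were left out, ratios were put on the log2 scale, repeated spots were averaged, and the autosomal median was subtracted from every array without loess or quantile normalisation, which gave 170305 probes. Genes with at least 3 probes were tested with limma 3.58.1 (R 4.3.3) on gene means and on gene minus flank, either as an intercept over 20 tumours or as genotype contrasts in 1 fit with all tumours, with Benjamini-Hochberg adjustment. Autosomes were segmented by penalised least squares (penalty 40, at least 5 probes per segment, single probes held within 2.5 noise units of the running median over 25 probes); fits and segmentation were tested on simulated data. Python 3.11.15, numpy 2.4.6 and scipy 1.17.1 were used.

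The members, lists and rules were chosen with earlier results of these data known. The text names all members, per list the 2 genes lost and the 1 gained in most tumours (if at least 3), any list gene called in a genotype comparison, and the 1 most alike gene per member; 1 gene that the rule names is not reported here. No mm9 genome was used here. Of 180880 spots per array, 174305 were not controls. Columns of other series in the value table numbered 0.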

Additional observations from a re-analysis of the deposited data

Results flagged for a closer look

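In the set of 4 WT_Dmt1 tumours, replicate 4 stood apart from the rest by the gene minus flank of 2 members, where the gap to the nearest tumour took up most of the range of the set. For Nf1 it was at -0.02, with the nearest at -0.14, a gap of 0.857 of the range. For Rb1 it was at 0.05, with the nearest at -0.25, a gap of 0.852. These were 2 of 48 groups of values examined in this way, and chance gives about 1 in 20.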

How the results depend on the processing

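The members called lower over all tumours stayed at 5 by the gene mean and 4 against the flank whichever tumour was left out (5 to 5 and 4 to 4); with probes well above background these counts were 3 and 3, with normexp 6 and 3, with slide as a random block 4 and 4, and with a 2 Mb flank the second was 3. Members called higher by the gene mean rose from 0 to 1 with those probes and with the value table of the series (0 to 1 with a tumour left out). Against the flank they were 2, not 1, with normexp, probes above background, the value table, patches left out or a 0.5 Mb flank, and 0 with at least 5 probes per gene, which drops Tsc2 (1 to 2 with a tumour left out). Pairs called lost, 39, became 61 and 20 at thresholds of 0.1 and 0.3, 13 with normexp and 0 with the shared profile regressed out (35 to 39 with a tumour left out). Of all pairs of gene and tumour, 25.4%, 8.16%, 5.96% and 0.154% were called lost at these settings, in the same order. Pairs called gained, 1, became 6 and 0 at those thresholds and 0 with normexp, centring on the mode or the shared profile regressed out (0 to 1 with a tumour left out; 0 without WT_plain 3). Of all pairs, 10.1%, 0.27%, 0.353%, 1.2% and 0.315% were called gained at these settings, in the same order.

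These values changed sign, the cause of which was not tested: with normexp, Cul1 (-0.16, and -0.13 against the flank) and Ptch1 against the flank (0.0605); with probes above background, Nf1 (0.043), Tsc1 (0.0261, and 0.0372 against the flank) and Fbxw7 (-0.0156, and -0.00088 against the flank); with other flanks, Fbxw7 (-0.0114 at 0.5 Mb, -0.0165 at 2 Mb) and Tsc1 (0.0038 at 2 Mb); with centring on the mode, Fbxw7 (-0.0271). With a tumour left out, Fbxw7 ran from -0.0142 to 0.016, and from -0.007 to 0.0298 against the flank.

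No member was called between genotypes under any setting. Of all genes, with the wild type of the same scan day, 383, 303 and 279 were called by the gene mean in MutyhKO, Ogg1KO and Mth1KO, and 21, 1 and 2 with patches also left out, a setting added after seeing the data, as was the correction for G and C content. The replicate numbers do not pair the tumours (median r of same-numbered deviations -0.02, from -0.41 to 0.47): with the replicate block, 0 members were called in each comparison, and Tsc2 in Ogg1KO was -0.46. With slide as a fixed block that value was -0.99, linked to wild type through MutyhKO 1 alone.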
